A study of Mus musculus with 2 samples.

Results

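In wild-type mouse liver under endoplasmic reticulum (ER) stress, 622 of the 14157 CHOP peaks (4.39%, 95% Wilson interval 4.07 to 4.74) lay at bidirectional promoters. A peak was taken as such when its summit fell within 1 kb of start sites of at least 2 different protein-coding genes on opposite strands. The peaks come from chromatin immunoprecipitation sequencing (ChIP-seq) of CHOP in wild-type mice that received 1 mg/kg tunicamycin, an inhibitor of N-linked glycosylation, by intraperitoneal injection 8 h earlier. Livers of 3 mice were pooled into 1 immunoprecipitated library, and 1 input library came from the same kind of tissue. Sex and age are not given in the labels, and no untreated or CHOP-deficient liver was analysed here. With 1 library there is no replicate: intervals and p-values below take peaks, genes, gene pairs or reads of that library as units. Intervals on reads cover counting error only. None of these says anything about variation between mice.

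CHOP, the product of Ddit3, is a bZIP transcription factor that accumulates during ER stress. It pairs with C/EBP and ATF family proteins, and such pairs are known to bind composite elements made of a C/EBP part and an ATF part. At a bidirectional promoter, a pair of genes is transcribed away from a common, usually CpG-rich region, or from starts whose transcripts overlap; genes of DNA repair, mitochondria and RNA processing often stand in such pairs.

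Of the 20 strongest of these peaks, 3 (15.0%, 5.24 to 36.0) held at least 1 of 4 C/EBP, CRE and composite motifs near the summit, beside 2.57% of all members and 2.36% of other promoter peaks. Among peaks of at least 20-fold, the share was 13.0% (4.54 to 32.1) of 23 members and 9.56% (6.51 to 13.8) of 251 other promoter peaks. A palindromic E-box was near the summit in 6 of the 20, beside 6.11% of all members and 5.33% of other promoter peaks. In the highest of 4 equal bins of each set by fold, it was near 14.1% of member summits and 11.0% of other promoter summits. Sequences of mm10 are given here on the plus strand, with the matched letters in capitals unless stated otherwise. A match is a description of the letters, not a measured site. The E-box CACGTG, the letters recognised by USF, MYC and TFEB family proteins, lay within 50 bp of these 6 summits. In 4 of the 6 it was followed by AC on at least 1 strand. This set was chosen after the values were seen, and 4 of its sequences are shown.
Mttp/Trmt10a (chr3:138143772-138143801, plus strand): cccctcgccactCACGTGccgtcttccaga
Hps5/Gtf2h1 (chr7:46796091-46796120, plus strand): ggcgtttccggtCACGTGccctcagcgccc
Rmnd1/Armt1 (chr10:4432383-4432412, plus strand): ggcaagctgggaCACGTGaccgtccgaaca
Rhno1/Foxm1 (chr6:128362904-128362964, plus strand): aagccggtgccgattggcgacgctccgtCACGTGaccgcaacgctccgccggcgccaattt

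The next set holds the 8 strongest members with a match to the C/EBP-ATF composite TGATGNAAT, the CRE palindrome TGACGTCA, the CRE-C/EBP hybrid TGACGCAA or the C/EBP palindrome TTGCGCAA. All 8 hold the CRE or the hybrid, on either strand.
Hist1h2ae/Hist1h2bg (chr13:23571098-23571127, plus strand): cgtccagacatTGACGCAAgaaggtaggaa
Tbc1d17/Akt1s1 (chr7:44849926-44849955, plus strand): ccacacggaaaTGACGCAAgaagccgccat
Rad51c/Tex14 (chr11:87404533-87404562, plus strand): ggtcagtggcgTGACGTCAcacgcgcggcg
Acd/Pard6a (chr8:105701576-105701636, plus strand): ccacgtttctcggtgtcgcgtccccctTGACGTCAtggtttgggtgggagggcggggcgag
E130116L18Rik/Galnt11 (chr5:25222832-25222861, plus strand): gccgcgggcggTGACGTCAtcctcggaggc
Glyr1/Ubn1 (chr16:5049939-5049999, plus strand): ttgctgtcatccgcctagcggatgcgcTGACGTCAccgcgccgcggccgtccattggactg
Klhdc3/Mea1 (chr17:46681048-46681077, plus strand): cttgtcctcgcTTGCGTCAgtctcgggcac
Dhx38/Txnl4b (chr8:109565848-109565877, plus strand): aagggcggaaaTGACGTCActtcctgtcgc

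The composite without its last letter, TGATGNAA, was searched after the values were seen. Its 4 strongest holders include both cytosolic tRNA synthetase promoters among the members, Yars and Wars, and in Wars the full composite was present.
Bcl6/Gm37419 (chr16:23988592-23988621, plus strand): ctagaaacttcTTGCATCAccacttctaag
S100pbp/Yars (chr4:129189895-129189924, plus strand): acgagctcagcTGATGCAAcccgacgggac
Wars/Wdr25 (chr12:108893489-108893549, plus strand): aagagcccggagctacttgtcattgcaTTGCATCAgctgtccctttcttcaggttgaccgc
Ddx28/Dus2 (chr8:106011843-106011872, plus strand): caaagcctgggTGATGCAAgtttgctgaga

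In the 3 strongest members none of the C/EBP, CRE or full composite letters lay within 50 bp of the summit, whose base is the capital letter.
Dcun1d3/Lyrm1 (chr7:119895721-119895750, plus strand): ccggcggcggccgcCccgaagccccgcccc
Mttp/Trmt10a (chr3:138143807-138143836, plus strand): gattggtcagctgcGgttcgttcgcgggcg
Bcl6/Gm37419 (chr16:23988564-23988593, plus strand): gcaataatcacctgGtgtccggcctttcct

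The promoter of Ppp1r15a (GADD34), which the labels name as the site where the antibody was tested before sequencing, was itself a member. The AP-1 heptamer TGANTCA lay 3 bp from its summit.
Ppp1r15a/Plekha4 (chr7:45526203-45526232, plus strand): aaactcagagcTGACTCAatctgcgccaac

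The whole interval between both starts is shown for Skiv2l/Nelfe, the strongest divergent member with its summit between the starts, and the capital letter is the summit base.
Skiv2l/Nelfe (chr17:34850211-34850390, plus strand): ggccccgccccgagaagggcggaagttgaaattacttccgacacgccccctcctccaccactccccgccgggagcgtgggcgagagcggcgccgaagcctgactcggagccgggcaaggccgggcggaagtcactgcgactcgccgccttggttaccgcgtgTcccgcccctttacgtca

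Promoter peaks were common at all genes: 6100 of 21866 protein-coding genes (27.9%) had at least 1 peak with its summit this close to a start. Against that background, 1127 genes (5.15%) had a peak shared with an opposite-strand gene, and these peaks fell on 557 gene pairs. A single peak was seen at 496 pairs, 2 peaks at 57 and 3 peaks at 4. Most members reached 2 genes (609), while 11 reached 3 genes and 2 reached 4. The annotation holds 1412 opposite-strand pairs whose starts are at most 2 kb apart, the largest distance at which 1 summit can reach both, and 571 of them (40.4%, 37.9 to 43.0) had a shared peak. Either gene had some promoter peak in 687 pairs (48.7%).

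Genes in such pairs had a promoter peak more often than other genes. The share was 44.7% (42.9 to 46.6) in the 2765 genes with an opposite-strand start within 2 kb and 25.5% (24.9 to 26.1) in the 19101 others. In a logistic model with errors clustered by linked genes, the odds ratio was 2.37 (2.12 to 2.64, p = 3.37e-55, n = 21866 genes). With the GC share and the CpG observed/expected ratio as covariates it was 1.28 (1.13 to 1.45, p = 0.000144, n = 21866 genes). By construction, a summit near both starts counts for both genes, so a paired gene can gain its neighbour's peak. Of the 1236 paired genes with a promoter peak, 1127 had a peak shared with an opposite-strand gene. Neither model takes this into account, so the odds ratios cannot be read as a preference for paired genes. Genes were also cut into 5 bins of equal size by CpG ratio. In bin 2 from the bottom the shares were 19.3% (15.0 to 24.5) in paired genes and 6.52% (5.81 to 7.32) in the others, and in bin 3 they were 38.2% and 26.8%. In bin 5, the most CpG-rich, the share was 60.5% (57.4 to 63.5) in paired genes against 63.7% (62.1 to 65.3) in the others, with overlapping intervals. Whether the odds ratio differs between bins was not tested.

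**Figure D1:**
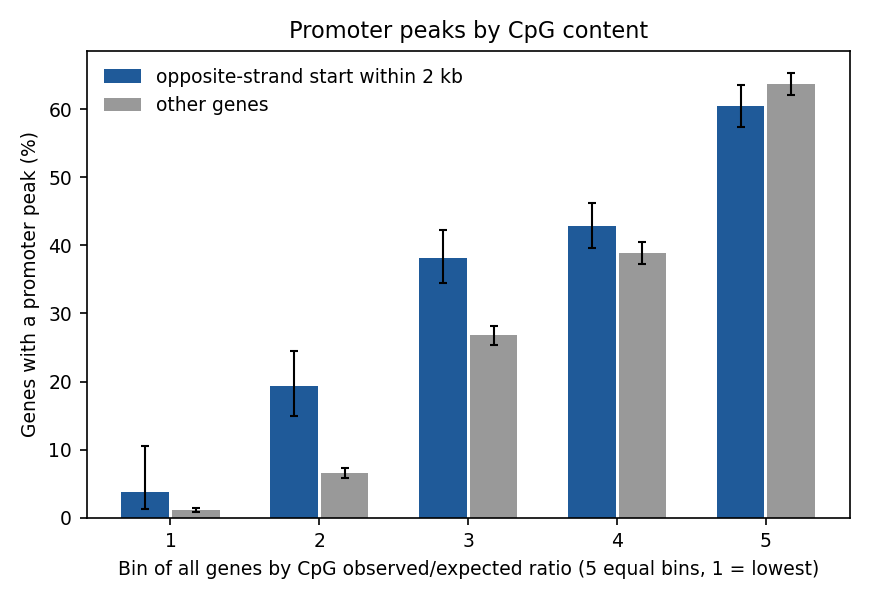
Share of protein-coding genes with a CHOP promoter peak (y axis, percent) by bin of genes in CpG observed/expected ratio (x axis, 5 bins of equal size, 1 the lowest), for genes with an opposite-strand start within 2 kb (blue) and other genes (grey); bars start at 0 and error bars are 95% Wilson intervals. Paired genes stand at 19.3% against 6.52% in bin 2 and at 60.5% against 63.7% in bin 5.

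Divergent pairs, in which the transcripts run away from each other, made up 495 of the 622 members (79.6%), and overlapping pairs, in which the transcripts run across each other, the other 127 (20.4%). In divergent members the starts were a median of 129 bp apart (quartiles 69 and 245 bp), and in 454 (91.7%) they were at most 500 bp apart. The share of pairs with a shared peak was 43.8% at a distance of up to 100 bp, 48.2% from there up to 200 bp and 48.1% from there up to 500 bp, with overlapping intervals. It was 31.0% (22.3 to 41.4) above 500 and up to 1000 bp and 3.25% (1.27 to 8.06) beyond 1000 bp. The window in which a summit reaches both starts narrows with distance by the rule, so the last 2 shares cannot be read as less binding. Over the last distance range 37.4% of pairs had a promoter peak at either gene. Overlapping pairs had a shared peak in 43.2% of cases at up to 500 bp of overlap and in 35.4% beyond it.

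Most summits lay inside 1 of the genes rather than between the starts. In divergent members the summit lay between the starts in 110 of 495 (22.2%, 18.8 to 26.1), inside the minus-strand gene in 187 (37.8%) and inside the plus-strand gene in 198. Here the starts are those of the pair closest to each other; with the starts nearest the summit, an alternative chosen after seeing the data, 180 of 500 (36.0%, 31.9 to 40.3) lay between them. Between the starts lay 9.18% of summits at spacings of up to 100 bp and 25.7% above 200 and up to 500 bp. The share was 58.3% above 500 and up to 1000 bp, and beyond 1000 bp all 5 summits lay there. By the rule, the gap fills more of the window open to a summit as the spacing grows. The rise with spacing thus comes at least in part by construction and cannot be read as a preference. Of all members, 382 (61.4%, 57.5 to 65.2) had the summit at or downstream of its nearest start, against 3582 of the 5684 other promoter peaks (63.0%, 61.8 to 64.3). The median distance to the nearest start was 69 bp in members and 114 bp in other promoter peaks, and members have more starts in reach by the rule. The called peak covered both starts in 210 members (33.8%). Of 51 divergent pairs with several member peaks, 22 had a summit inside each gene.

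**Figure D2:**
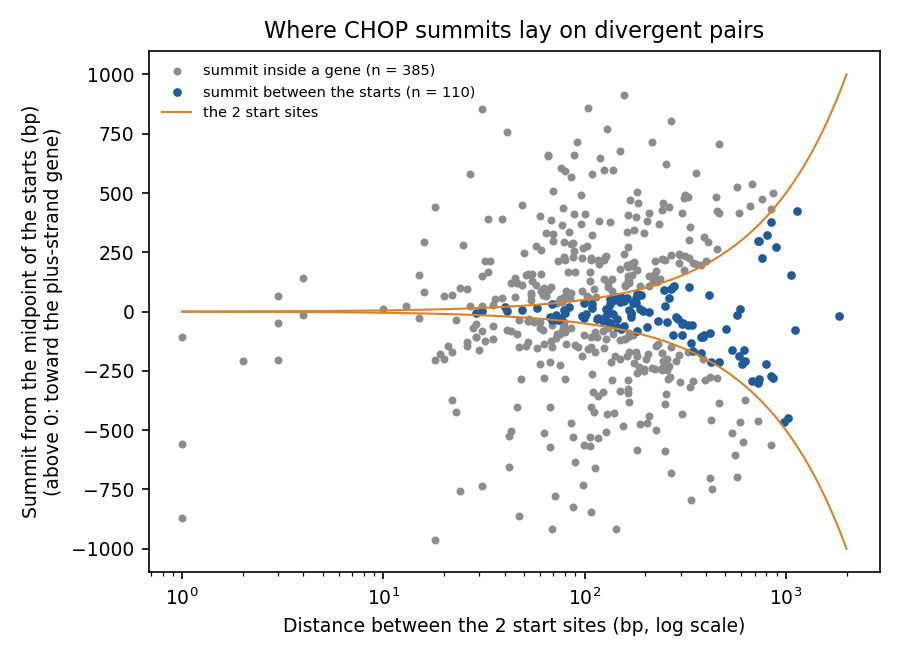
Position of the CHOP summit from the midpoint of both start sites (y axis, bp, above 0 toward the plus-strand gene) against the distance between the starts (x axis, bp, log scale) for the 495 divergent members, 1 point a peak; orange lines mark the starts. Blue points, the 110 summits between the starts, form 22.2% of all and are few at short distances.

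No difference in CHOP enrichment between bidirectional and other promoters was detected. The fold is the authors' ratio of reads at the summit to the local background, with the same constant added to both by MACS2's formula. The median background was 1.06 reads in members and 1.17 in others, so this constant lowers the fold of many peaks. The fold had a median of 6.57 in members (quartiles 5.21 and 9.28, range 3.23 to 88.3) and 6.65 in the 5684 other promoter peaks (quartiles 5.25 and 9.15, up to 131). In a linear model across promoter peaks, the log2 fold of members minus that of others was -0.009 (-0.067 to 0.048, p = 0.757, n = 6306 peaks). A fold of at least 10 was reached by 127 members (20.4%) and 1179 others (20.7%), and a fold of at least 20 by 23 (3.70%) and 251 (4.42%). The median number of reads at the summit was 13 in both sets, and 215 members (34.6%, 30.9 to 38.4) had 10 or fewer, against 1702 others (29.9%, 28.8 to 31.1), so a few reads set the fold of many of these peaks. Members and others were also close in width (medians 352 and 351 bp), GC share (0.633 and 0.640) and CpG ratio (0.834 and 0.823).

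**Figure D3:**
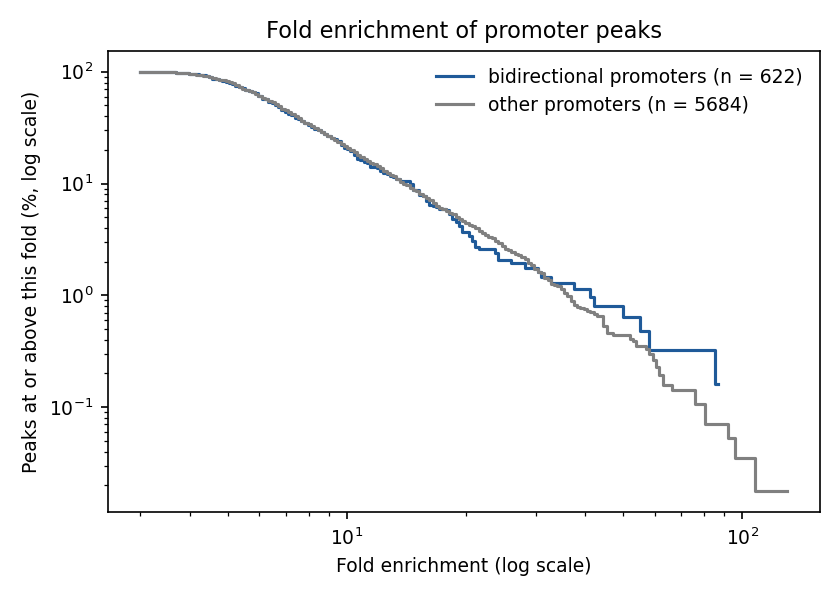
Share of peaks at or above each fold enrichment (y axis, percent, log scale; x axis, fold, log scale) for the 622 members (blue) and the 5684 other promoter peaks (grey). The lines run together: a fold of at least 10 is reached by 20.4% and 20.7%.

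Repeat-masked sequence lay under 34 member summits (5.47%) and 396 other promoter summits (6.97%), against 3303 of the 7851 distal summits (42.1%). Among peaks of at least 20-fold, 393 of 577 distal peaks (68.1%) were 290 to 340 bp wide, against 15 of 251 other promoter peaks and 2 of 23 members. Those 2 members, Snx1/Ciao2a (54.7-fold, 305 bp) and Nt5c3b/Klhl10 (23.2-fold, 304 bp), both had a repeat-masked summit more than 500 bp from the nearest start. The part of repeats in their fold was not tested.

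Among the 20 members of highest fold, 17 were divergent and 3 overlapping, and 13 of the called peaks covered both starts. How well they can be ranked depends on the reads at the summit, and exact Poisson intervals at 95% on these reads, at a constant background, are given with each fold. Dcun1d3/Lyrm1 led with 88.3-fold (75.6 to 103, 169 reads), its summit 10 bp from a start of Dcun1d3, a regulator of cullin neddylation, and 126 bp from one of Lyrm1. Mttp/Trmt10a followed with 83.8-fold (69.4 to 100.4, 116 reads), and its interval overlaps that of Dcun1d3/Lyrm1. Mttp is needed to load apolipoprotein B with lipid, and Trmt10a methylates tRNA. The summit lay 22 bp from a start of Trmt10a and 433 bp from that of Mttp.

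The intervals of both stood clear of all other members. Bcl6/Gm37419, at the gene of a transcriptional repressor, had 57.6-fold (47.8 to 68.8, 120 reads), and this summit lay in the 370 bp by which the pair overlaps. Skiv2l/Nelfe, genes of an RNA helicase of the exosome pathway and of a subunit of the negative elongation factor, had 41.8-fold (33.5 to 51.6, 85 reads).

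Ppp1r15a/Plekha4 ranked 7 with 40.6-fold (31.2 to 51.9, 61 reads). Ppp1r15a encodes the subunit that directs protein phosphatase 1 to phosphorylated eIF2alpha. The starts are 62 bp apart, the summit lay 48 bp inside Ppp1r15a, and the peak covered both starts. A peak in this position cannot be assigned to 1 of the genes.

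Hps5/Gtf2h1 (37.4-fold, 29.3 to 47.1) lies at the gene of a TFIIH subunit. Slc35a5/Atg3 (32.5-fold, 24.6 to 42.2, 54 reads) lies at the gene of the conjugating enzyme that lipidates LC3 in autophagy. Hist1h2ae/Hist1h2bg (30.7-fold, 23.4 to 39.5) is a pair of core histone genes, and 8 of 22 eligible histone pairs (36.4%) had a shared peak, near the 40.4% of all pairs. Histone genes have near-identical copies, so reads there may be split or placed wrongly. The intervals of these folds overlapped those of their neighbours in rank.

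The remaining members of the 20 were at least 20.4-fold: Rnf214/Pcsk7, Mapk4/Gm9925, Rmnd1/Armt1, Tbc1d17/Akt1s1, Tyw3/Cryz, Nt5c3b/Klhl10, Rhno1/Foxm1, Rad51c/Tex14, E130114P18Rik/Nfia and St5/Akip1. Akt1s1 encodes an inhibitor of mTORC1, Tyw3 an enzyme of wybutosine synthesis in tRNA, Foxm1 a cell cycle transcription factor and Rad51c a recombination protein. At the bottom, Smim14/Ube2k and Tada2a/Acaca had 3.23-fold (1.60 to 6.02) and Tbc1d16/Ccdc40 3.31-fold (1.64 to 6.17). Members with 3 or more genes were led by Chtf8/Utp4 (18.3-fold), where the annotation holds 3 gene entries under 2 symbols, followed by Hook3/Rnf170 (14.6-fold) and Myl12a/Myom1 (14.4-fold). A gene known only by a clone-style name was part of 82 members (13.2%).

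**Figure D4:**
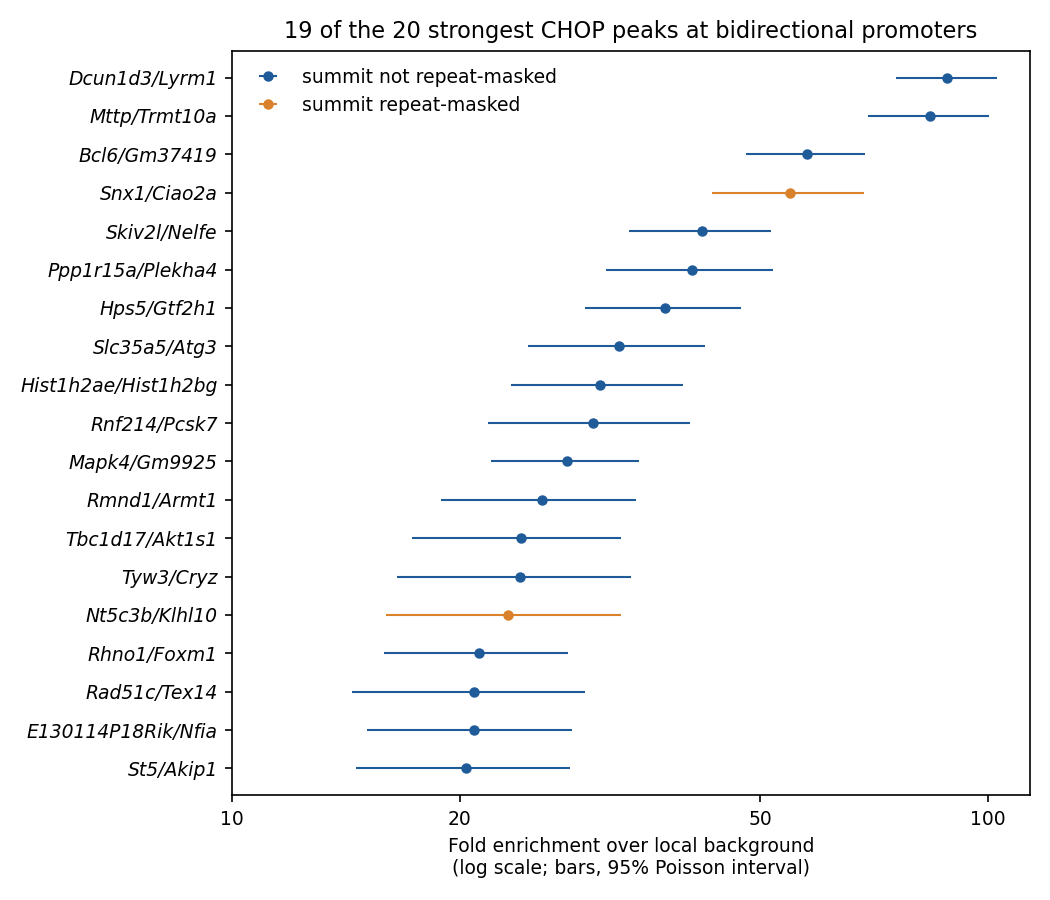
Fold enrichment (x axis, log scale) of 19 of the 20 members of highest fold, named by their genes; points are the authors' fold and bars the exact 95% Poisson interval on the reads at the summit. Dcun1d3/Lyrm1 and Mttp/Trmt10a stand apart at 88.3 and 83.8, and the orange points, Snx1/Ciao2a and Nt5c3b/Klhl10, have repeat-masked summits.

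Of all 2765 genes with an opposite-strand start within 2 kb, called eligible here, 1127 (40.8%, 38.9 to 42.6) had a member peak, and this share stands behind the count of each gene list. Of 24 genes of the stress response, CHOP or ATF4 targets among them, 18 had a promoter peak, beside 27.9% of all genes. In this list 4 genes were eligible, and 2 of these (8.33% of the list, beside 5.15% of all genes) had a member peak. They were Ppp1r15a and Atf5 (Atf5/Il4i1, 10.4-fold, 6.60 to 15.6), a bZIP factor of the same response. Ddit3 and Fgf21 were the eligible genes without one. In the list of ER folding and degradation 5 of 28 genes (17.9%), or 5 of 8 eligible ones, had a member peak, led by Sec61b of the ER translocon (Alg2/Sec61b, 16.9-fold), the ER lectin gene Erlec1 (Erlec1/Asb3, 15.1-fold) and the disulfide isomerase gene Pdia3 (Catsper2/Pdia3, 11.8-fold). Hsp90b1, Derl2 and Ufd1 were eligible and had none.

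Genes that charge or modify tRNA were also among the members. Among cytosolic aminoacyl-tRNA synthetases 2 of 20, or 2 of 5 eligible ones, had a member peak, Yars (S100pbp/Yars, 19.2-fold, 12.8 to 27.9) and Wars (Wars/Wdr25, 9.75-fold, 12 reads). Among the mitochondrial ones 3 of 17 (17.6%), or 3 of 6 eligible ones, did, among them Ears2 (10.2-fold) and Rars2 (6.54-fold). Of 38 genes of tRNA and rRNA modification 10 (26.3%) had a member peak, which is 52.6% (31.7 to 72.7) of the 19 eligible ones beside 40.8% of all eligible genes. Trmt10a and Tyw3 led, followed by the methyltransferase gene Nsun6 (Nsun6/Arl5b, 15.6-fold). The list for making serine, one-carbon units and amino acids had no member peak in its 17 genes, of which 2 were eligible. A promoter peak was at 14 of the 17, beside 27.9% of all genes.

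In autophagy all 6 eligible genes of the 23 listed (26.1%) had a member peak, beside 40.8% of all eligible genes and 5.15% of all genes. They ranged from Atg3 and Atg13 (Atg13/Harbi1, 15.0-fold) over Atg12 (Atg12/Ap3s1, 7.31-fold) down to Atg9a and Sqstm1 (4.11-fold each). In DNA repair 6 of 32 genes (18.8%) did, or 6 of 15 eligible ones, a share near that of all eligible genes. Rad51c, the kinase gene Atm (Atm/Npat, 19.3-fold, 12.9 to 28.0) and the end-joining gene Xrcc4 (Xrcc4/Tmem167, 7.53-fold) were the highest. Of 13 mitochondrial chaperones and proteases 3 (23.1%), or 3 of 5 eligible ones, did, the chaperonin genes Hspd1 and Hspe1 with the same peak and the protease gene Yme1l1 (Mastl/Yme1l1, 9.27-fold), and of 31 proteasome subunits 3 (9.68%), or 3 of 7 eligible ones, none of the latter above 5.01-fold. Among lipoprotein and plasma protein genes 2 of 18 (11.1%) did, Mttp and Apoh (Prkca/Apoh, 4.70-fold). No test of the lists was made.

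Of 13 pairs known from textbooks 6 had a shared peak (46.2%, 23.2 to 70.9), near the 40.4% of all eligible pairs. The chaperonin pair Hspd1/Hspe1, whose products fold proteins in the mitochondrial matrix, had 1 peak of 1074 bp at 19.3-fold (13.9 to 26.3, 39 reads). Ppat/Paics of purine synthesis had 13.7-fold (9.33 to 19.5), Wrap53/Trp53 6.75-fold (3.34 to 12.6) and Psmb1/Tbp 5.01-fold (2.29 to 10.1, 6 reads). Atm/Npat was also among them. Pairs with no shared peak called included Surf1/Surf2, Col4a1/Col4a2, Mcm4/Prkdc, Mrps12/Sars2, Brca1/Nbr1 and Sirt3/Psmd13. A pair without a call may still be bound below what this depth detects.

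The limit of 1 kb fell among peaks of usual fold. Just inside it stood peaks at Mepce/Zcwpw1 (988 bp to the farther start, 8.14-fold) and Hist1h3c/Hist1h2bb (990 bp, 7.16-fold). Just outside it stood peaks at AU022252/P3h1 (1006 bp, 8.36-fold) and Bhmt2/Dmgdh (1007 bp, 5.25-fold). Each pair named outside the limit also had 1 shared peak inside it, so the limit left out a peak and not the pair. By chromosome, against 40.4% over all eligible pairs, the lowest and highest shares with a shared peak among the autosomes and X were 2 of 40 on X (1.38% to 16.5% by the Wilson interval) and 33 of 53 on chromosome 12 (48.8% to 74.1%).

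Motif letters were compared between members and the 5684 other promoter peaks within 50 bp of the summit, on both strands, for 13 motifs with p-values adjusted by Benjamini-Hochberg over them. Letters of the ETS family core CCGGAAG were found in 46 members (7.40%, 5.59 to 9.72) and 214 others (3.76%, 3.30 to 4.29), an odds ratio of 2.04 (1.47 to 2.84, adjusted p = 0.000291, n = 6306 peaks). The element TGCGCATG of NRF1, a factor of nuclear genes for mitochondria, was in 10 members (1.61%) and 32 others (0.563%), an odds ratio of 2.89 (1.41 to 5.90, adjusted p = 0.0238, n = 6306 peaks). Adding base composition (GC share and CpG ratio) to the models gave adjusted p-values of 0.00202 and 0.0443 (n = 6306 peaks). Member summits lay closer to a start (median 69 bp against 114 bp), and no model held this distance. Its part in the motif differences was not tested. The NRF1 difference missed the threshold in 4 alternatives (−log10 q of at least 5, fold of at least 5, outermost starts and the shorter window). Both missed it in logistic models with a window of 25 bp each side (adjusted p = 0.0737 for both, n = 6306 peaks). In that window 0 motifs passed and 3 had an unadjusted p under 0.05. The full composite and the C/EBP palindrome had no member match there, so they had no odds ratio and were left out of the adjustment. The ETS core was also frequent at pairs without a shared peak, of which 116 of 841 (13.8%) had a CHOP promoter peak at either gene. It was within 50 bp of the midpoint of 11.5% of eligible pairs without a shared peak, 13.1% of those with one and 6.73% of all gene starts.

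No difference in the letters of CHOP's own family passed the test. At least 1 of the composite, CRE, hybrid and C/EBP motifs was in 16 members (2.57%, 1.59 to 4.14) and 134 others (2.36%, 1.99 to 2.79). The composite was in 2 members (0.322%), Wars/Wdr25 and Ubxn10/Pla2g2c, and in 44 others (0.774%), an odds ratio of 0.413 (0.100 to 1.71, adjusted p = 0.723, n = 6306 peaks). Its form without the last letter was in 8 members (1.29%) and 111 others (1.95%), an odds ratio of 0.654 (0.318 to 1.35). The E-box was in 38 members (6.11%) and 303 others (5.33%), an odds ratio of 1.16 (0.816 to 1.64), the GC box GGGCGG in 44.2% and 45.5%, and the CCAAT box in 8.04% and 7.48%. The YY1 element AAGATGGC was in 2.41% and 1.28% (adjusted p = 0.109, n = 6306 peaks). It passed the threshold with summits within 500 bp of both starts (odds ratio 2.16, adjusted p = 0.0376, n = 474 members) and with divergent pairs alone (2.24, adjusted p = 0.0300, n = 495 members). The CCAAT box passed with 100 bp each side (1.33, adjusted p = 0.0452, n = 6306 peaks). The ZNF143 element ACTACAA was in 0.643% and 0.405%, AP-1 in 0.965% and 1.11%, and the TATA box TATAAA in 0.643% and 0.757%. Overlapping letters were counted for each motif, so CACGTGAC counts as an E-box as well. In the same window around the outermost start of all 21866 genes, the composite was in 0.210%, CRE in 1.36%, the hybrid in 0.265%, the C/EBP palindrome in 0.0823%, AP-1 in 1.81% and the GC box in 28.1%. There the NRF1 element was in 1.34%, the CCAAT box in 14.2%, the YY1 element in 1.71%, the ZNF143 element in 1.15%, the TATA box in 5.26%, the shortened composite in 1.04% and CACGTGAC in 1.37%.

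**Figure D5:**
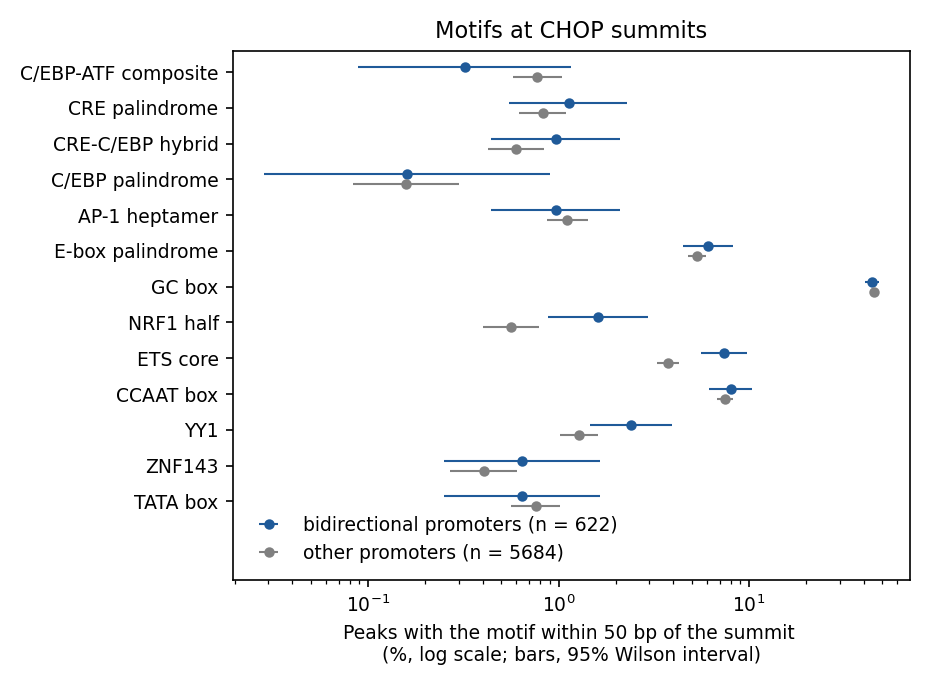
Share of peaks with each of the 13 motifs within 50 bp of the summit (x axis, percent, log scale) for the 622 members (blue) and the 5684 other promoter peaks (grey), with 95% Wilson intervals. The ETS core (7.40% against 3.76%) and the NRF1 element (1.61% against 0.563%) are the motifs whose intervals lie apart.

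Members of high fold held E-box letters more often. They were within 50 bp of 1.92% of summits (0.656 to 5.50) in the lowest of 4 equal bins of members by fold, of 4.52% and 3.87% in the middle bins and of 14.1% (9.50 to 20.4) in the highest. Other promoter peaks had 2.74%, 3.10%, 4.43% and 11.0% in their own bins. The median fold was 9.82 in the 38 members with an E-box and 6.46 in those without. At least 1 of the C/EBP, CRE and composite motifs was in 0.641% of members in the lowest bin and 5.77% (3.06 to 10.6) in the highest. Other promoter peaks had 0.774% and 4.86% in their own lowest and highest bins. Of the 100 members of highest fold, 4 held CRE and 2 the hybrid, and none held the full composite or the C/EBP palindrome. The shortened composite was in 0.641% of members in the lowest bin and 1.92% (0.656 to 5.50) in the highest. In other promoter peaks these shares were 0.633% and 4.22% (3.29 to 5.40). The ETS core went from 8.33% in the lowest bin to 5.77% in the highest, with overlapping intervals.

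The eligible pairs allow the same letters to be compared at the midpoint of both starts rather than at the summit. This comparison was chosen after seeing the data. The E-box was within 50 bp of the midpoint in 38 of 571 pairs with a shared peak (6.65%) and in 20 of 841 without one (2.38%), beside 3.27% of all gene starts. The odds ratio was 2.93 (1.68 to 5.08, adjusted p = 0.000762, n = 1412 pairs), and 2.80 (1.46 to 5.35, adjusted p = 0.0210) once base composition was in the model. Pairs that share a gene are not independent, and the models do not take this into account. The rule also sorts the pairs by spacing: of 123 divergent pairs with starts more than 1000 bp apart, 4 had a shared peak. Midpoints of such wide pairs lie farther from both starts than those of close pairs. No model held the spacing, and its part in the differences between pairs with and without a shared peak was not tested. The E-box followed by AC was at 4.03% (2.70 to 5.97) and 0.832% (0.404 to 1.71) of the midpoints. The GC box was at 48.5% and 27.6%, an odds ratio of 2.47 (1.98 to 3.09, adjusted p = 2.00e-14, n = 1412 pairs), but 1.17 (0.896 to 1.52, adjusted p = 0.410) with base composition in the model. Pairs with a shared peak had a higher median GC share (0.632 against 0.569) and CpG ratio (0.837 against 0.678). The CRE palindrome was at 2.45% and 2.38% of midpoints and the CCAAT box at 21.4% and 21.2%. The hybrid TGACGCAA was at 7 and 1 midpoints, an odds ratio of 10.4 (1.28 to 85.0, adjusted p = 0.105, n = 1412 pairs). The hybrid's odds ratio with base composition in the model had an interval that spans 1 (7.87, 0.824 to 75.2). Other letters of CHOP's family went the other way, on few matches. The full composite was at 0 of 571 midpoints with a shared peak and 4 of 841 without one. The shortened composite was at 0.350% (0.0961 to 1.27) and 1.31% (0.732 to 2.33), and the C/EBP palindrome at 0 and 1 midpoints.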

How the data were processed

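CHOP peaks of 1 immunoprecipitated library from a pool of 3 livers were analysed, and no processed file of the input was used here. Per the labels' protocols, Bowtie (version not given in the sources used here) placed the single-end reads on mm10 with up to 2 mismatches, and reads beyond 2 at a position and strand were dropped. SAMtools 1.9 and Sambamba 0.7.1 were used for filtering and MACS2 2.1.2 at default settings for peak calling. Per peak, the authors deposited the fold enrichment (a ratio), −log10 of p and of q, and a score, which was not used. Reads at the summit were solved from fold and −log10 p by MACS2's formulas for all 14157 peaks (largest residual 3.13e-05). The labels do not state the total depth. A peak of few reads can change its fold with 1 read.

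Start sites of protein-coding transcripts were those of GENCODE M21 on GRCm38.p6. The tests were a linear model of log2 fold (HC3 errors), a logistic model of genes with clustered errors and logistic models of motifs, all two-sided, with a threshold of 0.05 on adjusted p; they were tested on simulated data. Members, lists, motifs and tests were chosen with earlier results of these data known. Genes named are the 20 members of highest and 3 of lowest fold, the 3 highest with 3 or more genes, up to 3 per list, the textbook pairs and the neighbours of the 1 kb limit. Holders of the composite and divergent pair examples outside these were named after their values were seen. Some members and pairs that the rule names, and some sequences, are not reported here. Alternatives changed the peak threshold, the distance, the starts used, repeats, motif window and base composition. Python 3.11.15, numpy, pandas, scipy, statsmodels and matplotlib were used.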

Additional observations from a re-analysis of the deposited data

How the results depend on the processing

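With 1 library, replicates could not be left out. No paired analysis was possible because each group holds 1 library. Numbers of member peaks and pairs stayed within 1.5 times under each alternative. Thresholds of 5 on −log10 q or on fold raised the median fold to 7.77 and 7.29, by construction. The share of paired genes with a promoter peak was 34.1% and 38.1% under these thresholds, 42.6% with the outermost start of each gene, 47.4% with an opposite-strand start within 1 kb and 40.7% with summits within 500 bp. The share of divergent summits between the starts was 36.0% with the starts nearest the summit.

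Motifs past the threshold fell from 2 to 1 with −log10 q or fold of at least 5 and with outermost starts, and to 0 at 25 bp each side (3 at an unadjusted p under 0.05). They rose to 3 with summits within 500 bp and with divergent pairs alone, by the YY1 element, and at 100 bp each side, by the CCAAT box. The log2 fold difference turned positive without repeat-masked summits (0.006), within 500 bp (0.028) and with 1 peak per pair (0.050), and passed the threshold in none of them. The odds ratio of the GC box between pairs with and without a peak was 1.17 with base composition as covariates.

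Odds ratios between members and other promoter peaks that changed side of 1, none past the threshold, were AP-1 at 1.18 (−log10 q), 1.05 (fold), 1.10 (outermost starts), 1.22 (25 bp) and 1.11 (base composition); the GC box at 1.05 (−log10 q), 1.01 (fold) and 1.01 (1 peak per pair); the CCAAT box at 0.902 (−log10 q); the C/EBP palindrome at 0.999 (no repeats), 0.570 (100 bp) and 0.937 (base composition); the TATA box at 1.07 (divergent pairs) and 1.09 (base composition); and the E-box at 0.722 (25 bp). The cause was not tested. Single matches decide the rare motifs, and few reads limit single peaks.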
